A study of Mus musculus with 14 samples.

Results

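The transcription factor genes Pitx1, Tbx4, Tbx5, Tbx2, Tbx3, Tbx15, Tbx18, Meis1, Meis2 and Shox2, which pattern the limb, were followed across 4 sorted cell populations of the mouse embryonic limb. They were matched by symbol to the annotation of the array, and the list was drawn up with earlier results of these data known. All 10 were found among the 21734 named genes. RNA was hybridised to Affymetrix Mouse Gene 1.0 ST arrays, 14 in all, and 1 value per gene is the log2 intensity of its brightest probe set. The cells came from digested limbs of C57BL/6 embryos at embryonic day 16.5 and were separated by antibody staining and flow sorting. Every population was CD9+. OCP4, with 4 arrays, carried both CD73 and Thy1 (CD73+ Thy1+). OCP1, with 3 arrays, carried CD73 without Thy1 (CD73+ Thy1-). OCP3, with 4 arrays, carried Thy1 without CD73 (CD73- Thy1+), and OCP2, with 3 arrays, carried neither (CD73- Thy1-). The labels call all of them osteochondroprogenitors, precursors of cartilage and bone. They do not say whether forelimbs, hindlimbs or both were used, how many embryos were pooled, or whether replicates came from separate litters. The p-values therefore rest on the spread among these arrays, and that spread may be technical.

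In the early limb bud, Tbx5 is expressed in the forelimb and starts its outgrowth by switching on the growth factor gene Fgf10, while Tbx4 and the homeobox gene Pitx1 act in the hindlimb, where Pitx1 gives the limb its hindlimb form. Tbx2 and Tbx3 encode T-box repressors that mark the anterior and posterior margins of the bud. Tbx15 and Tbx18 are closely related T-box genes, with Tbx15 needed for limb skeleton growth and dermal patterning in mice and Tbx18 known as a gene of vascular mural cells and the epicardium. Meis1 and Meis2 encode homeodomain proteins of the proximal limb that pair with Pbx proteins, and Shox2 is needed for growth of the proximal limb bones.

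Transcripts of CD73 and Thy1 matched the gates. The CD73 gene Nt5e averaged 13.19 ± 0.16 in OCP4 and 12.29 ± 0.16 in OCP1, against 9.46 ± 0.44 in OCP3 and 9.30 ± 0.15 in OCP2 (log2 intensity, SD), and Thy1 averaged 13.22 ± 0.07 in OCP4, 9.33 ± 0.11 in OCP1, 12.60 ± 0.12 in OCP3 and 9.60 ± 0.36 in OCP2. Array medians lay between 328 and 347 intensity units, and correlations over genes were 0.996 to 0.998 within populations and 0.984 to 0.994 between them.  Of the 10 limb identity genes, 9 differed among the 4 populations in the moderated F-test, Tbx18 being the exception (adjusted p = 0.119), where 39.5% of all genes did. Every limb identity gene averaged 9.80 or more in each population, above the array medians. Its share and that of all genes, here and in the comparisons below, were not matched for level. In sorted bulk samples like these, fewer cells of a type and less RNA per cell cannot be told apart.

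**Figure D1:**
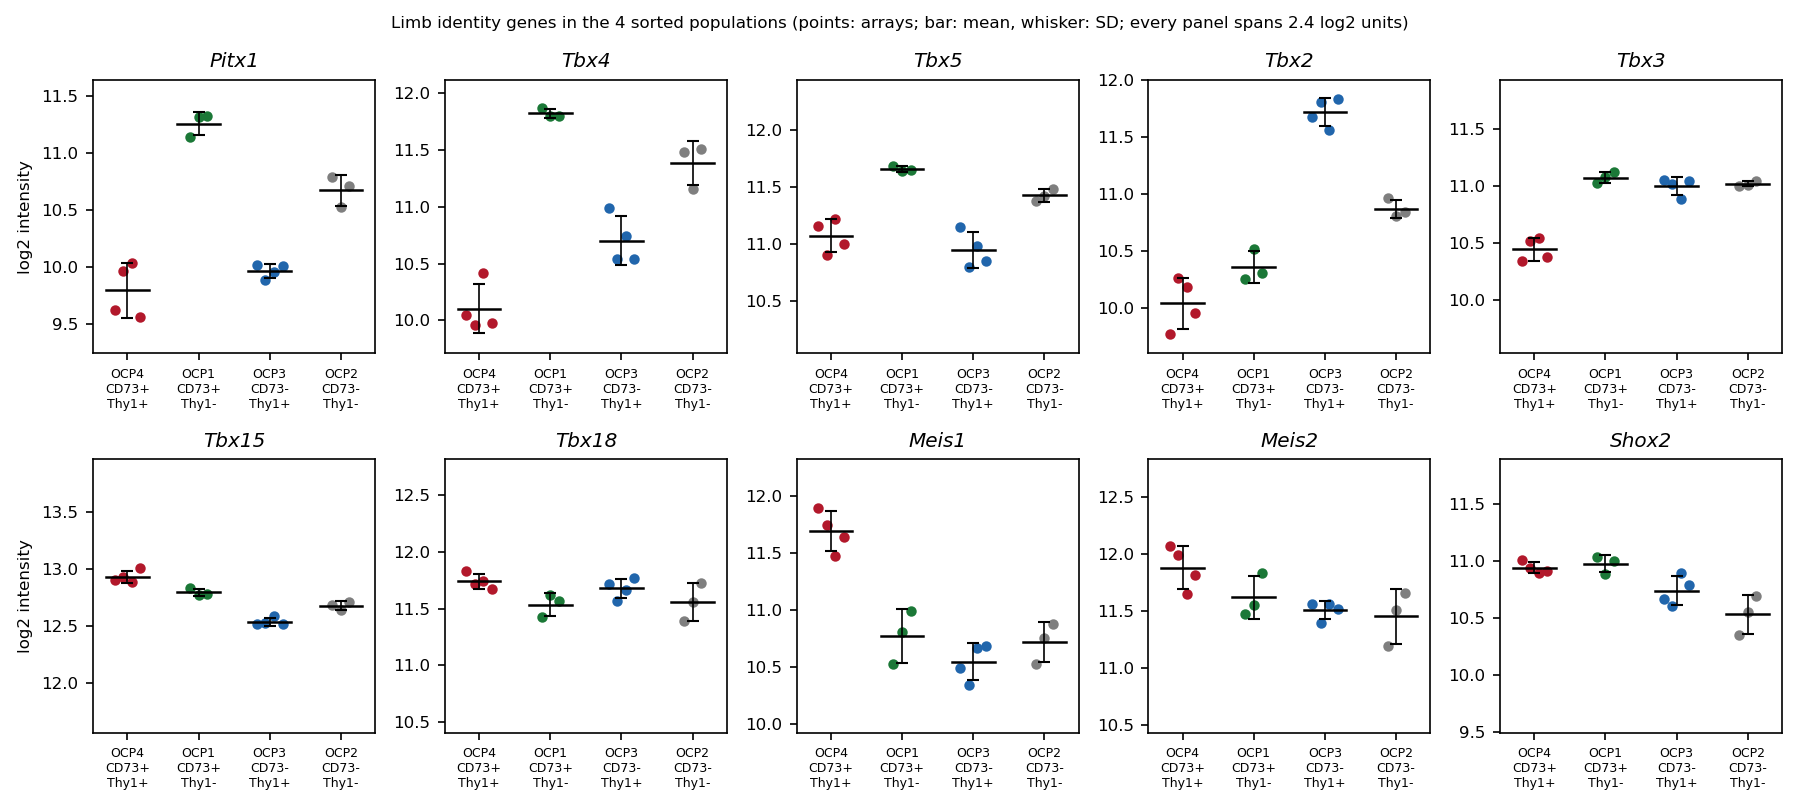
Log2 intensity (vertical axis) of each of the 10 genes on every array, by population (OCP4, OCP1, OCP3, OCP2 from left to right); points are arrays, bars means and whiskers SD, and every panel spans the same number of log2 units. Pitx1, Tbx4 and Tbx5 are highest in OCP1, Tbx2 is highest in OCP3, Tbx3 is lowest in OCP4 and Meis1 is highest in OCP4.

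The hindlimb genes Pitx1 and Tbx4 were highest in OCP1 and lowest in OCP4. Pitx1 (probe set 10409551) read 9.62, 9.97, 10.04 and 9.56 in OCP4, 11.14, 11.32 and 11.33 in OCP1, 10.02, 9.89, 9.96 and 10.01 in OCP3, and 10.79, 10.53 and 10.71 in OCP2. The populations did not overlap, except that OCP4 and OCP3 shared a range. Pitx1 was 2.76-fold lower in OCP4 than in OCP1 (log2 difference -1.47 ± 0.11, SE, limma with Benjamini-Hochberg adjusted p = 1.64e-07) and 1.63-fold lower in OCP3 than in OCP2 (adjusted p = 0.000347). The difference of OCP4 and OCP3 was -0.17 log2 units, with a 95% confidence interval of -0.39 to 0.04, and was not called (adjusted p = 0.227).

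Tbx4 (probe set 10379944) had the widest range of group means among the 10 genes, 1.72 log2 units. Its values were 10.05, 9.96, 10.42 and 9.98 in OCP4, 11.86, 11.80 and 11.80 in OCP1, 10.99, 10.54, 10.74 and 10.54 in OCP3, and 11.48, 11.16 and 11.50 in OCP2. No array of one population reached into the range of another. Tbx4 was 3.29-fold lower in OCP4 than in OCP1 (log2 difference -1.72 ± 0.13, SE, adjusted p = 1.73e-07), 1.51-fold lower in OCP4 than in OCP3 (adjusted p = 0.00136) and 1.60-fold lower in OCP3 than in OCP2 (adjusted p = 0.00186). Between OCP1 and OCP2 its log2 difference of 0.44 (95% confidence interval 0.15 to 0.73) narrowly missed the threshold (adjusted p = 0.0532). That comparison passed under 9 of 23 other settings, among them without OCP3 replicate 1 (adjusted p = 0.0308) and without OCP4 replicate 3 (adjusted p = 0.0249).

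The forelimb gene Tbx5 (probe set 10525030) moved with the hindlimb genes rather than against them. It stood at 11.16, 10.90, 11.22 and 11.00 in OCP4, 11.69, 11.64 and 11.65 in OCP1, 11.15, 10.79, 10.98 and 10.85 in OCP3, and 11.37, 11.42 and 11.49 in OCP2. All arrays of both Thy1- populations lay above all arrays of both Thy1+ populations. Tbx5 was 1.50-fold lower in OCP4 than in OCP1 (log2 difference -0.59 ± 0.09, SE, adjusted p = 0.000129) and 1.40-fold lower in OCP3 than in OCP2 (adjusted p = 0.00130). OCP4 and OCP3, next to each other in the order of levels, did not differ beyond their spread (0.13 log2 units, 95% confidence interval -0.045 to 0.30, adjusted p = 0.271), nor did OCP1 and OCP2 pass (0.23 log2 units, 95% confidence interval 0.031 to 0.43, adjusted p = 0.139).

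Markers of tendon and cartilage cells moved with these 3 genes between Thy1+ and Thy1- cells. The summed intensity of 6 tendon markers was 20153 to 25148 in OCP4, 51933 to 54958 in OCP1, 25367 to 31633 in OCP3 and 41732 to 46173 in OCP2, and that of 10 chondrocyte markers was 14210 to 23095 in OCP4, 74992 to 88075 in OCP1, 13668 to 18622 in OCP3 and 39253 to 50015 in OCP2. Of the tendon markers, 6 of 6 were called lower in OCP4 than in OCP1 and 6 of 6 lower in OCP3 than in OCP2, and of the chondrocyte markers 10 of 10 and 9 of 10. Between OCP4 and OCP3, where Tbx4 was lower, 4 tendon markers were lower and 0 higher, but chondrocyte markers went mostly the other way, with 5 higher and 3 lower (median 0.45 log2 units). In that comparison the ranges did not overlap for 3 of the 6 tendon markers and for 1 of the 10 chondrocyte markers. Scx, the transcription factor of tendon progenitors, averaged 9.92 ± 0.21 in OCP4 and 11.40 ± 0.04 in OCP1, and Comp, a cartilage and tendon matrix protein, 10.03 ± 0.39 and 12.84 ± 0.13 (SD, n = 4 and n = 3). Their part in the Pitx1, Tbx4 and Tbx5 differences was not tested. No marker of any list was at 0, since array values have a background, and detection calls were not used here.

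Tbx4 is shown with its upstream sequence because it spanned the widest range, and Meis1 and Meis2 are shown for comparison because their group means were both highest in OCP4. The sequences are the 250 bases before the start that RefSeq's table gives for each gene, written 5′ to 3′ on the gene's strand; 5 of the 10 genes had an entry. Capitals mark matches, on either strand, to 3 promoter motifs. The first is the TATA box, searched as TATAAA. The second is the CCAAT box, searched under its own name's letters. The last is the GC box, searched as GGGCGG, and no match overlapped another.
Tbx4 (GRCm38.p6, chr11:85896515-85896764, plus strand): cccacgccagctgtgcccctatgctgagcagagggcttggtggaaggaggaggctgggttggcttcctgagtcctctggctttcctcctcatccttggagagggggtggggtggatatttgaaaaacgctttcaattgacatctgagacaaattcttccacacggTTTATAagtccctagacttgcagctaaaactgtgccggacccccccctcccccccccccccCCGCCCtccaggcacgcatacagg
Meis1 (GRCm38.p6, chr11:19018970-19019219, minus strand): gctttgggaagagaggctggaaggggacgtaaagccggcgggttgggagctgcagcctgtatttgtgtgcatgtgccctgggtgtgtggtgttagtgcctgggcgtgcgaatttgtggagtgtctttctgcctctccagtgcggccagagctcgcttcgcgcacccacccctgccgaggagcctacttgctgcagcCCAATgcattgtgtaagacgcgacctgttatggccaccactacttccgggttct
Meis2 (GRCm38.p6, chr2:116064620-116064869, minus strand): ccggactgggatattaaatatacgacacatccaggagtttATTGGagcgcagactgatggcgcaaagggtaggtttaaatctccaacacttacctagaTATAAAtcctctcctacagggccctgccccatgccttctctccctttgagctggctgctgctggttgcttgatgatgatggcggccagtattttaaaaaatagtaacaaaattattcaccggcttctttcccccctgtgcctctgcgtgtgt
The Tbx4 window held 1 match to the TATA box, 85 bases before the start, and 1 to the GC box, 24 bases before it. The Meis1 window had 1 CCAAT box match at 54 bases. The Meis2 window had 1 TATA box match at 152 bases and 1 CCAAT box match at 210. These are matches of letters, and their function was not tested. Of 32851 windows of the same length, 12.4% held a TATA box, 33.8% a CCAAT box and 32.7% a GC box. None of the 5 windows matched the Meis core TGACAG (15.9% of all windows), the T-box site GGTGTGA (3.33%), the Pitx core TAATCC (6.25%) or the Hox and Pbx composite TGATNNAT (7.68%), which says only that these letters are not in these windows.

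Tbx2 (probe set 10379936) had a different pattern, with its peak in OCP3. It read 9.77, 10.26, 10.18 and 9.95 in OCP4, 10.25, 10.52 and 10.31 in OCP1, 11.68, 11.81, 11.57 and 11.83 in OCP3, and 10.96, 10.81 and 10.84 in OCP2. Every OCP3 array lay above every other array, and only OCP4 and OCP1 overlapped. Tbx2 was 3.21-fold lower in OCP4 than in OCP3 (log2 difference -1.68 ± 0.10, SE, adjusted p = 1.38e-08) and 1.80-fold higher in OCP3 than in OCP2 (adjusted p = 7.28e-05). It was 1.43-fold lower in OCP1 than in OCP2 (adjusted p = 0.0102), a call that ended without OCP1 replicate 1 (adjusted p = 0.0564). The 1.25-fold lower level in OCP4 than in OCP1 (adjusted p = 0.0440) was called in 13 of 23 other settings. It was lost when any one of the 3 OCP1 arrays was left out, likewise for replicates 2 and 3 of OCP2, replicate 1 of OCP3 and replicates 1 and 4 of OCP4 (adjusted p 0.0518 to 0.190), and with the replicate block (adjusted p = 0.0560) and only the arrays of both groups (adjusted p = 0.0854).

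Pericyte and smooth muscle markers moved with Tbx2, except between OCP4 and OCP1. Their summed intensity over 10 genes was 25131 to 30235 in OCP4, 23621 to 28341 in OCP1, 81008 to 94994 in OCP3 and 33890 to 38360 in OCP2, and 10 of 10 were called lower in OCP4 than in OCP3. Between OCP4 and OCP1, where Tbx2 was lower in OCP4, 4 of these markers were called higher and 1 lower in OCP4 (median 0.13 log2 units). Rgs5, a pericyte signalling regulator, averaged 9.53 ± 0.43 in OCP4, 8.58 ± 0.15 in OCP1 and 13.28 ± 0.17 in OCP3 (SD, n = 4, 3 and 4). Schwann cell markers were also high in OCP3, with a summed intensity over 10 genes of 4577 to 6551 in OCP4, 5421 to 6419 in OCP1, 14325 to 18347 in OCP3 and 13020 to 16595 in OCP2. The part of either cell type in the Tbx2 difference was not tested. Osteoblast markers moved with Tbx2, Tbx3 and Tbx4 between OCP4 and OCP3, where 7 of 10 were lower and 1 higher, and 7 of 10 were lower and 0 higher in OCP4 than in OCP1; their part was not tested either. Their summed intensity was 36827 to 41929 in OCP4, 51264 to 53260 in OCP1, 46374 to 49859 in OCP3 and 33405 to 37382 in OCP2. Of 10 endothelial markers, 5 were lower and 0 higher in OCP4 than in OCP3, and 9 were lower and 0 higher in OCP1 than in OCP2. Of 10 skeletal muscle markers, 8 were lower and 0 higher in OCP1 than in OCP2, and 7 were lower and 1 higher in OCP3 than in OCP2. The F-test called 1 of 8 keratinocyte markers.

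Tbx3 (probe set 10525016), the close relative of Tbx2, was called lower in OCP4 than in each other population. Its values were 10.34, 10.51, 10.54 and 10.37 in OCP4, 11.02, 11.07 and 11.12 in OCP1, 11.05, 11.02, 10.89 and 11.04 in OCP3, and 11.00, 11.01 and 11.04 in OCP2. The OCP4 arrays lay below all others, while the other populations overlapped one another. Tbx3 was 1.47-fold lower in OCP4 than in OCP3 (log2 difference -0.56 ± 0.06, SE, adjusted p = 2.78e-06), 1.55-fold lower than in OCP1 and 1.49-fold lower than in OCP2 (adjusted p = 2.09e-06 and 5.47e-06). Among the other populations it did not pass, and the 95% confidence intervals were narrow, at -0.08 to 0.19 log2 units for OCP1 minus OCP2, -0.15 to 0.11 for OCP3 minus OCP2 and -0.06 to 0.20 for OCP1 minus OCP3.

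T-box genes lie in clusters, and neighbours differed here. In the RefSeq annotation of GRCm38.p6, Tbx2 and Tbx4 are adjacent protein-coding genes, as are Tbx3 and Tbx5. Tbx2 was higher in OCP3 than in OCP2 by 0.85 log2 units while its neighbour Tbx4 fell by 0.68 in the same comparison. Tbx5 fell by 0.48 there, while Tbx3 had a log2 difference of -0.02.

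Tbx15 and Tbx18 varied little. Tbx15 (probe set 10494672) read 12.90, 12.92, 12.88 and 13.00 in OCP4, 12.83, 12.77 and 12.78 in OCP1, 12.52, 12.52, 12.58 and 12.52 in OCP3, and 12.68, 12.63 and 12.71 in OCP2. The populations did not overlap, and replicates were tight, with SDs of 0.03 to 0.05 log2 units. It was 1.31-fold higher in OCP4 than in OCP3 (log2 difference 0.39 ± 0.04, SE, adjusted p = 5.33e-06) and 1.19-fold higher in OCP4 than in OCP2 (adjusted p = 0.000767). OCP1 and OCP2, adjacent in the order, did not pass (0.12 log2 units, 95% confidence interval 0.013 to 0.22, adjusted p = 0.154).

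The other Tbx15 steps sat at the threshold. OCP4 was 1.10-fold higher than OCP1 (adjusted p = 0.0417), which was lost in 10 of 23 other settings, 8 of them left-out arrays (each of the OCP1 arrays, replicate 3 of OCP2, replicate 4 of OCP3, and replicates 1, 2 and 4 of OCP4, adjusted p 0.0512 to 0.126). OCP3 was 1.10-fold lower than OCP2 (adjusted p = 0.0498), which was lost in 19 of 23, among them every left-out array but OCP4 replicate 4 (adjusted p up to 0.157) and centring of arrays on their medians (adjusted p = 0.191).

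Tbx18 (probe set 10595560) had 11.83, 11.72, 11.74 and 11.67 in OCP4, 11.42, 11.61 and 11.57 in OCP1, 11.72, 11.57, 11.66 and 11.76 in OCP3, and 11.39, 11.56 and 11.72 in OCP2. The populations overlapped in every pair but OCP4 and OCP1, and no pair passed. The largest difference was 0.20 log2 units for OCP4 minus OCP1 (95% confidence interval 0.04 to 0.37, adjusted p = 0.0706), and it passed in 6 of 23 other settings, among them without OCP2 replicate 1 or 3 (adjusted p = 0.0377 and 0.0437). OCP4 minus OCP2, at 0.18 log2 units (adjusted p = 0.114), passed in 3, among them without OCP2 replicate 3 (adjusted p = 0.0269). A dimmer probe set for Tbx18, which alone of the 10 genes had more than 1, gave 10.04 ± 0.11 in OCP4, 9.87 ± 0.03 in OCP1, 9.88 ± 0.19 in OCP3 and 9.81 ± 0.13 in OCP2 (SD) and no call either.

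In GRCm38.p6 the protein-coding gene next to Tbx18 is Nt5e, the CD73 gene used for the sort. Nt5e was higher by 3.73 log2 units in OCP4 than in OCP3, a comparison in which Tbx18 had a log2 difference of 0.06 (95% confidence interval -0.09 to 0.22).

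The proximal limb genes Meis1 and Meis2 were highest in OCP4. Meis1 (probe set 10384504) read 11.90, 11.75, 11.48 and 11.64 in OCP4, 10.52, 10.81 and 10.99 in OCP1, 10.49, 10.35, 10.67 and 10.68 in OCP3, and 10.53, 10.76 and 10.88 in OCP2. The OCP4 arrays lay above all others, and the other populations overlapped. It was 2.21-fold higher in OCP4 than in OCP3 (log2 difference 1.15 ± 0.12, SE, adjusted p = 3.18e-06), 1.89-fold higher than in OCP1 (adjusted p = 6.55e-05) and 1.96-fold higher than in OCP2 (adjusted p = 4.02e-05). Between OCP1 and OCP2 the log2 difference was 0.05 (95% confidence interval -0.24 to 0.34).

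Meis2 (probe set 10486041) ran in the same direction with a smaller range. Its values were 12.07, 11.99, 11.64 and 11.82 in OCP4, 11.47, 11.55 and 11.83 in OCP1, 11.56, 11.39, 11.56 and 11.52 in OCP3, and 11.19, 11.51 and 11.66 in OCP2. OCP4 stood above all OCP3 arrays and overlapped with OCP1 and OCP2. Meis2 was 1.29-fold higher in OCP4 than in OCP3 (log2 difference 0.37 ± 0.11, SE, adjusted p = 0.0223) and 1.34-fold higher in OCP4 than in OCP2 (adjusted p = 0.0174). The OCP4 and OCP3 call was lost when replicate 2 of OCP3, or replicate 1 or 2 of OCP4, was left out (adjusted p 0.0541 to 0.0728), and the OCP4 and OCP2 call without OCP2 replicate 1 or OCP4 replicate 1 (adjusted p 0.0554 to 0.0999). Against OCP1 the difference was 0.26 log2 units (95% confidence interval 0.0027 to 0.52, adjusted p = 0.138).

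Dermal fibroblast markers moved with Meis1, Meis2 and Tbx15. The summed intensity of 10 markers was 87168 to 90960 in OCP4, 62077 to 65552 in OCP1, 44348 to 54036 in OCP3 and 54634 to 58079 in OCP2, and 8 of 10 were called higher and 1 lower in OCP4 than in OCP3. Twist2, a transcription factor of the dermis, averaged 13.97 ± 0.08 in OCP4, against 11.81 ± 0.26 in OCP3 (SD, n = 4 each). Haematopoietic markers moved with Meis1 in part, with 5 of 10 higher and 0 lower in OCP4 than in OCP3 and likewise than in OCP1. The ranges did not overlap for 1 of the 10 between OCP4 and OCP3, and for 7 between OCP4 and OCP1. Between OCP4 and OCP2, where Meis1 was also higher, 0 of 10 were called. The F-test called 2 of these 10 markers, where 39.5% of all genes passed it. Their median log2 difference was 0.34 between OCP4 and OCP3, 0.47 between OCP4 and OCP1 and 0.17 between OCP4 and OCP2. Their summed intensity was 3294 to 4681 in OCP4, 2589 to 3075 in OCP1, 2479 to 3679 in OCP3 and 3029 to 4120 in OCP2. Group means of the marker Cd53 lay below the array medians in every population, and those of the marker Fcer1g above them. The part of these cell types in the Meis1, Meis2 and Tbx15 differences was not tested.

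Shox2 (probe set 10498568) was lowest in OCP2. It stood at 11.01, 10.94, 10.90 and 10.91 in OCP4, 11.03, 10.89 and 11.00 in OCP1, 10.67, 10.61, 10.89 and 10.79 in OCP3, and 10.35, 10.55 and 10.69 in OCP2. Both CD73+ populations lay above all OCP2 arrays, and OCP3 overlapped with OCP1 and OCP2. Shox2 was 1.36-fold higher in OCP1 than in OCP2 (log2 difference 0.44 ± 0.09, SE, adjusted p = 0.00396) and 1.33-fold higher in OCP4 than in OCP2 (adjusted p = 0.00157), while OCP4 and OCP1 did not differ beyond their spread (-0.03 log2 units, 95% confidence interval -0.21 to 0.14). OCP4 minus OCP3, at 0.20 log2 units, just missed the threshold (adjusted p = 0.0617) and passed in 7 of 23 other settings, 3 of which left out an array, replicate 1 or 3 of OCP2 or replicate 3 of OCP3 (adjusted p 0.0270 to 0.0433). OCP3 minus OCP2 (0.21 log2 units, adjusted p = 0.105) passed in 1 of 23, when replicate 3 of OCP2 was left out (adjusted p = 0.0378). The 1.18-fold higher level in OCP1 than in OCP3 (adjusted p = 0.0493) was lost in 16 of 23, with left-out arrays of all 4 populations among them (adjusted p up to 0.170).

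**Figure D2:**
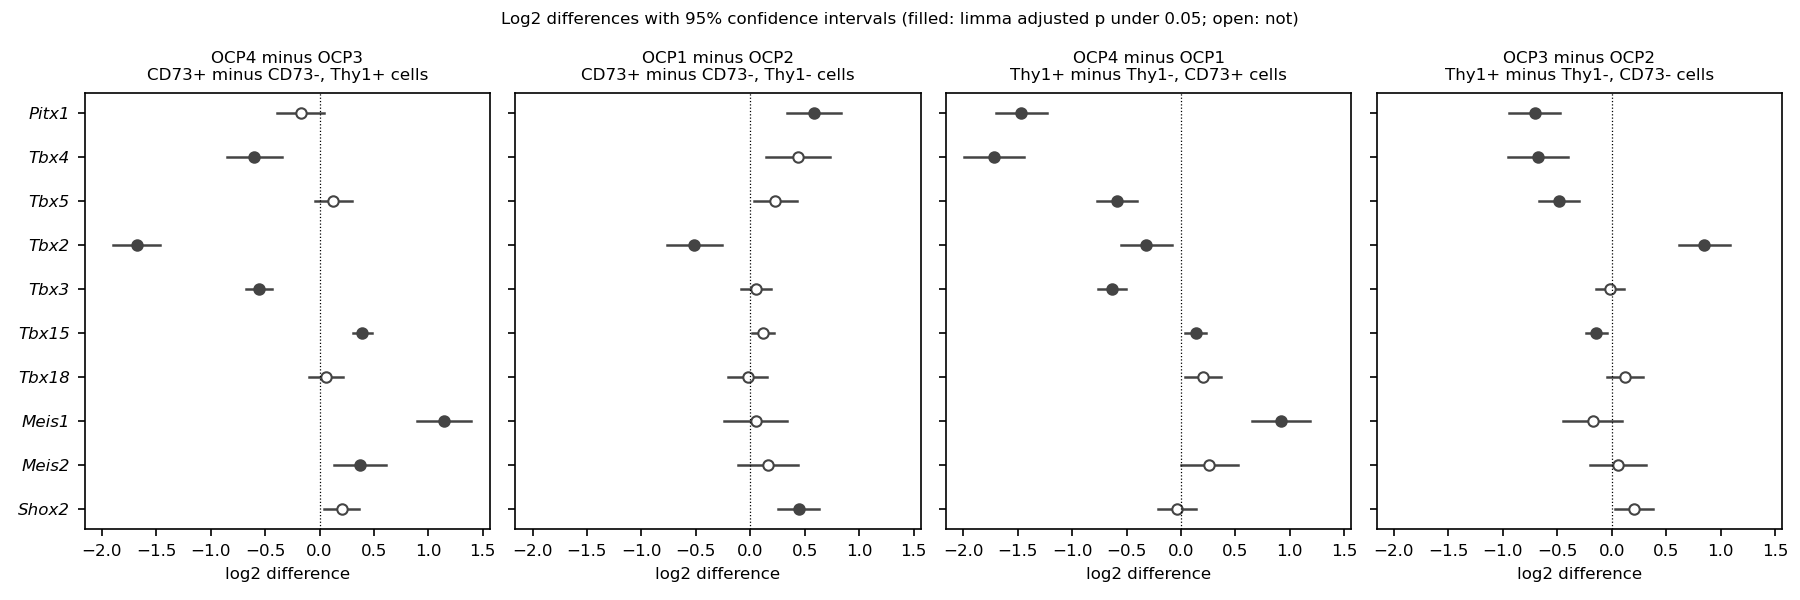
Log2 differences (horizontal axis) of the 10 genes (rows) with 95% confidence intervals, for CD73+ minus CD73- cells in the Thy1+ and Thy1- backgrounds and for Thy1+ minus Thy1- cells in the CD73+ and CD73- backgrounds; filled points passed an adjusted p of 0.05. Tbx2 and Meis1 have the widest CD73 differences, both among Thy1+ cells, and Tbx4 and Pitx1 the widest Thy1 differences, both among CD73+ cells.

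CD73+ and CD73- cells were compared within each Thy1 class. Among Thy1+ cells (OCP4 minus OCP3), 6 of the 10 genes were called, where 27.8% of all genes were, with Tbx15, Meis1 and Meis2 higher and Tbx4, Tbx2 and Tbx3 lower in CD73+ cells. Their median log2 difference was 0.09, beside 0.04 over all genes. Among Thy1- cells (OCP1 minus OCP2), 3 of the 10 were called, where 11% of all genes were, with Pitx1 and Shox2 higher and Tbx2 lower in CD73+ cells (median 0.14, beside -0.01 over all genes). Tbx2 was the gene called in both, lower in CD73+ cells each time.

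Thy1+ cells had less of the hindlimb and forelimb genes than Thy1- cells in both backgrounds. Among CD73+ cells (OCP4 minus OCP1), 7 of the 10 genes were called, where 26.3% of all genes were, with Meis1 and Tbx15 higher and Pitx1, Tbx4, Tbx5, Tbx2 and Tbx3 lower in Thy1+ cells (median -0.18, beside 0.01 over all genes). Among CD73- cells (OCP3 minus OCP2), 5 of the 10 were called, where 16.1% of all genes were, with Tbx2 higher and Pitx1, Tbx4, Tbx5 and Tbx15 lower in Thy1+ cells (median -0.08, beside -0.03 over all genes). Tbx2 was thus called higher in Thy1+ cells without CD73 and lower in Thy1+ cells with it, and the call with CD73 depended on single arrays as given above.

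Across the diagonals, 9 of the 10 genes differed between OCP4 and OCP2, where 24.2% of all genes did, with Tbx18 not called. Tbx15, Meis1, Meis2 and Shox2 were higher and Pitx1, Tbx4, Tbx5, Tbx2 and Tbx3 lower in the cells with both markers. Between OCP1 and OCP3, 6 of the 10 were called, where 24.4% of all genes were. Pitx1, Tbx4, Tbx5, Tbx15 and Shox2 were higher and Tbx2 was lower in OCP1. These 6 comparisons share populations and are not independent of one another.

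The CD73 difference depended on Thy1 for 6 of the 10 genes in the test of the interaction itself, where 18% of all genes were called. For Meis1 the CD73+ minus CD73- difference was 1.15 log2 units in Thy1+ cells and 0.05 in Thy1- cells, a difference of 1.09 ± 0.18 (SE, adjusted p = 0.000572). Tbx4 was lower by 0.60 with CD73 in Thy1+ cells but had a difference of 0.44 in Thy1- cells (interaction -1.04 ± 0.18, SE, adjusted p = 0.000937). Pitx1 had CD73 differences of -0.17 and 0.59 in the same order (interaction -0.76 ± 0.15, SE, adjusted p = 0.00294). Tbx5 had no called interaction (-0.10 ± 0.12, SE, adjusted p = 0.635). Tbx2 (-1.17, adjusted p = 9.33e-05), Tbx3 (-0.61, adjusted p = 0.000155) and Tbx15 (0.28, adjusted p = 0.00807) made up the rest, and the interactions of Tbx18, Meis2 and Shox2 did not pass (adjusted p 0.178 to 0.677).

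**Figure D3:**
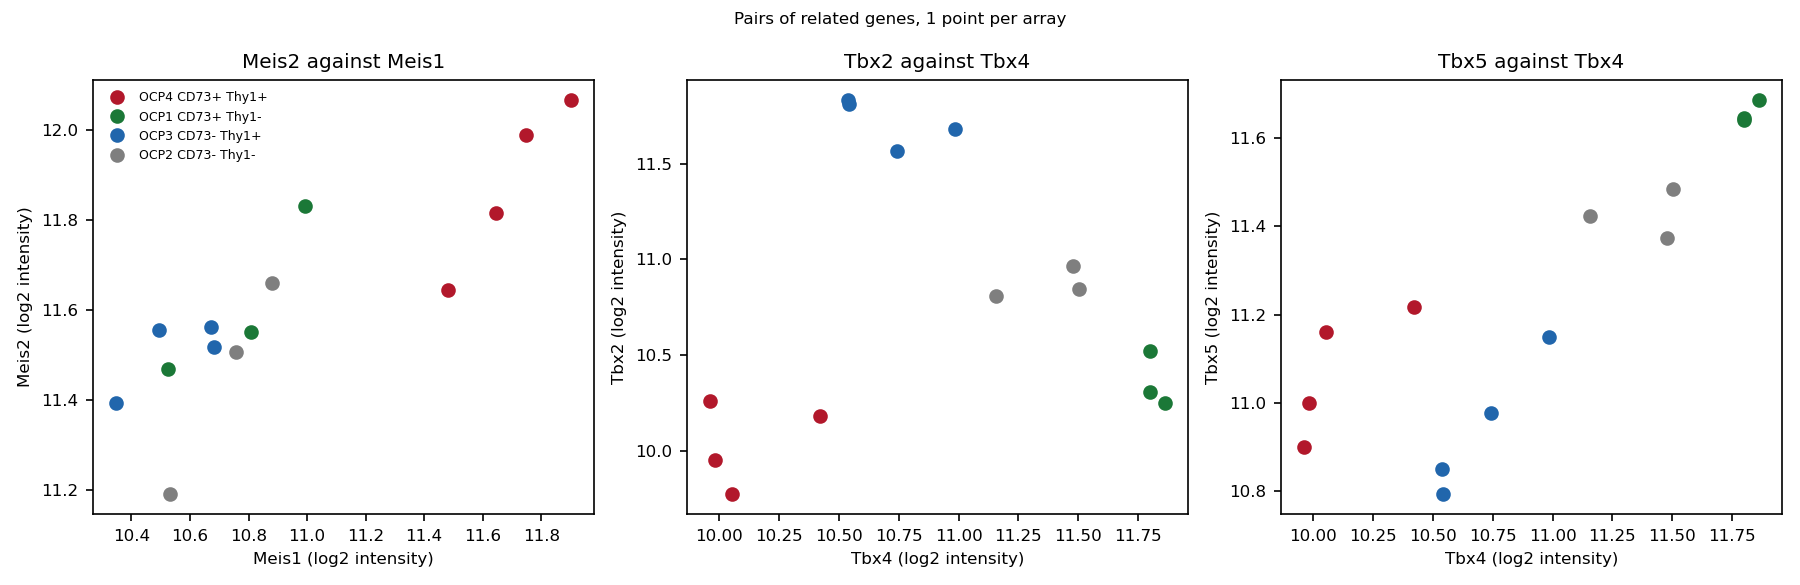
Log2 intensities of pairs of genes, 1 point per array, coloured by population: Meis2 against Meis1, Tbx2 against Tbx4, and Tbx5 against Tbx4. Meis1 and Meis2 rise together across arrays, also within populations, and Tbx2 and Tbx4 place the populations in separate areas. Tbx5 follows Tbx4, except that OCP4, lower in Tbx4 than OCP3, overlaps with it in Tbx5.

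Some of the genes also varied together between replicates of one population. After subtraction of each population's mean, the deviations of Meis1 and Meis2 correlated with Pearson r = 0.89 over the 14 arrays. The same array was the highest for both genes in OCP4, OCP1 and OCP2, and the lowest for both in all 4 populations. Tbx4 and Tbx5 deviations correlated with r = 0.79, those of Tbx2 and Tbx3 with r = 0.75, those of Pitx1 and Tbx4 with r = 0.52, and those of the neighbours Tbx2 and Tbx4 with r = -0.00033. Pairs of less related genes reached like values, with r = 0.75 for Tbx18 and Meis1, 0.74 for Pitx1 and Tbx3 and 0.71 for Pitx1 and Tbx2, so a high r was not limited to close relatives. Deviations on one array share its RNA, labelling and normalization, and these values are descriptions without a test.

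The genes whose profiles were most like each member's were found by Pearson r of log2 intensity over the 14 arrays, which fall into 4 populations, among the 8577 genes called by the F-test. Tbx4 was followed most closely by Mkx, a tendon transcription factor (r = 0.992), Tnmd, the tendon membrane protein tenomodulin (r = 0.988), and Slc16a4 (r = 0.986). Pitx1 had Prg4, which encodes the joint lubricant lubricin (r = 0.983), Wwp2, a ubiquitin ligase of cartilage (r = 0.982), and Gprc5a (r = 0.981). For Tbx5 they were Gpsm2 (r = 0.968) and the cartilage genes Epyc (r = 0.963) and Scrg1 (r = 0.958). 

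Tbx2 was closest to Pear1 (r = 0.987), Rsu1 (r = 0.987) and Mcam, a mural and endothelial cell adhesion molecule (r = 0.986), and Tbx3 to Sort1 (r = 0.986), Fhl1 (r = 0.980) and Shc1 (r = 0.977). Tbx15 had the signalling ligand gene Wnt11 (r = 0.978), the collagen hydroxylase gene P4ha2 (r = 0.974) and the protease gene Pcsk6 (r = 0.972). Meis1 had the amino acid transporter gene Slc7a10 (r = 0.979), the guidance cue gene Ntn1 (r = 0.975) and the chromatin remodelling subunit gene Smarcd2 (r = 0.965). The remaining 3 genes had looser matches, with best values of 0.926 for Tbx18 (Ube2a, followed by Atf1 and Depdc1a), 0.926 for Meis2 (Serp1, followed by Mrgprf and Cdkn2c) and 0.911 for Shox2 (Ctsk, the collagen-degrading protease cathepsin K, followed by Atp8b2 and Pcolce).

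Other T-box genes were taken for comparison. Of 11 (T, Tbx1, Tbx6, Tbx10, Tbx19, Tbx20, Tbx21, Tbx22, Eomes, Tbr1 and Mga), 3 passed the F-test, or 27.3%, where 39.5% of all genes did. Tbx1, a T-box gene of pharyngeal and muscle development, averaged 10.56 ± 0.05 in OCP4, 9.47 ± 0.03 in OCP1, 9.80 ± 0.14 in OCP3 and 9.74 ± 0.18 in OCP2 (SD), and was higher in OCP4 than in OCP3 by 0.77 ± 0.08 log2 units (SE, adjusted p = 3.08e-06). Tbx20, a heart T-box gene, averaged 6.67 ± 0.15 in OCP4 and 7.46 ± 0.27 in OCP3 (SD, n = 4 each), a log2 difference of -0.79 (adjusted p = 0.000197). T, the brachyury gene, averaged 6.72 ± 0.15 in OCP3 and 7.10 ± 0.08 in OCP2 (SD), a log2 difference of -0.38 (adjusted p = 0.0212). Mean levels of Tbx20 and T lay below the array medians in every population. Apart from Tbx1 and Mga, the 11 genes had group means of at most 8.36, while every limb identity gene averaged 9.80 or more. The 27.3% and the share of the limb identity genes thus come from unlike levels.

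Among relatives and partners of Pitx1 and the Meis genes, 8 of 11 passed the F-test, where 39.5% of all genes did. Between OCP4 and OCP3, 3 were higher and 2 lower, where 27.8% of all genes were called (median 0.0032 log2 units, beside 0.04 over all genes). Pknox2, a homeodomain relative of the Meis proteins, averaged 8.94 ± 0.09 in OCP4 and 9.90 ± 0.04 in OCP1 (SD, n = 4 and n = 3), and fell by 0.96 in OCP4 (adjusted p = 3.55e-08). Pbx3, which encodes a Meis partner, was lower in OCP4 than in OCP3 by -0.43 log2 units (adjusted p = 8.82e-06).

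**Figure D4:**
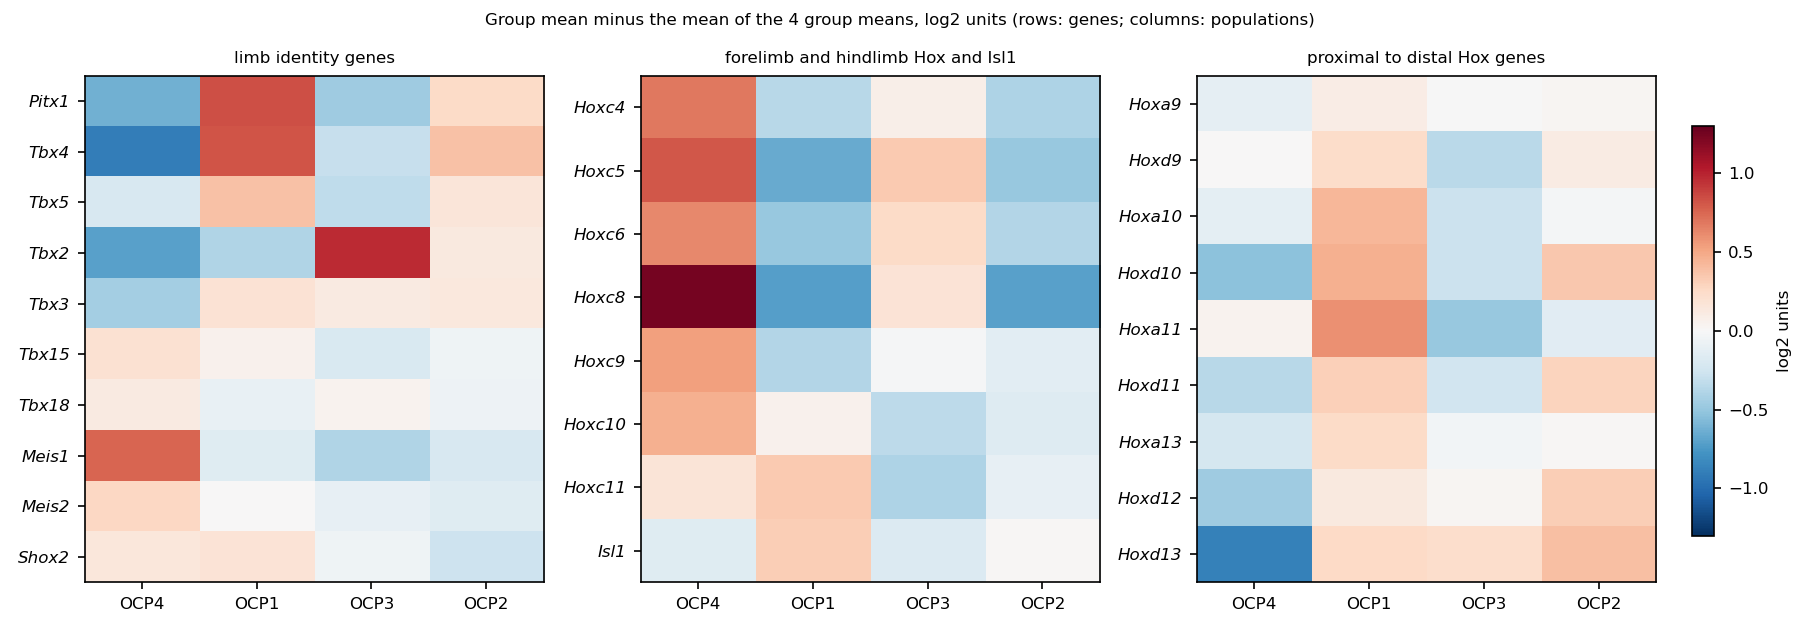
Mean of each population minus the mean of the 4 population means (colour, log2 units) for the 10 limb identity genes, for Hoxc genes and Isl1, and for Hox genes ordered from proximal to distal limb; columns are OCP4, OCP1, OCP3 and OCP2. Meis1 and the Hoxc genes from Hoxc4 to Hoxc10 are highest in OCP4, and Hoxd13 is lowest there.

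Position genes of the Hox clusters also differed. In a list of 7 Hoxc genes of the forelimb or hindlimb and the hindlimb gene Isl1, 7 of 8 were higher and 0 lower in OCP4 than in OCP3, where 27.8% of all genes were called (median 0.56 log2 units, beside 0.04 over all genes). In OCP4 against OCP1, 6 were higher and 1 lower, where 26.3% of all genes were called (median 0.98, beside 0.01). Hoxc8 averaged 11.20 ± 0.13 in OCP4, 9.24 ± 0.21 in OCP1, 10.13 ± 0.10 in OCP3 and 9.25 ± 0.08 in OCP2 (SD). Hoxc5 and Hoxc6 were higher in OCP4 than in OCP1 by 1.47 and 1.12 log2 units (adjusted p = 2.29e-07 and 5.18e-07). Named outside the rule after its values were seen, Isl1, which acts upstream in hindlimb outgrowth, was lower in OCP4 than in OCP1 by -0.47 log2 units (adjusted p = 0.000385), in the direction of Pitx1 and Tbx4, whereas the hindlimb gene Hoxc10 was higher by 0.41 (adjusted p = 0.00875). Isl1 was dim, with a mean of 8.54 in OCP1 and means below the array medians in the other populations.

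Of 9 Hoxa and Hoxd genes that mark proximal to distal limb segments, 9 were lower in OCP4 than in OCP1, where 26.3% of all genes were called in either direction (median -0.56 log2 units, beside 0.01 over all genes). Between OCP4 and OCP3, 2 were higher and 2 lower, where 27.8% of all genes were called. Hoxd13, a gene of the digits, averaged 8.86 ± 0.15 in OCP4, 9.998 ± 0.07 in OCP1, 9.97 ± 0.35 in OCP3 and 10.13 ± 0.30 in OCP2 (SD). It was lower in OCP4 than in OCP3 by -1.11 ± 0.15 log2 units (SE, adjusted p = 6.37e-05), where the proximal gene Meis1 was higher. Hoxd10 was lower in OCP4 than in OCP1 by -0.99 log2 units (adjusted p = 0.000128) and Hoxa11, a gene of the middle limb segment, by -0.55 (adjusted p = 0.00268).

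In the wider limb outgrowth network, 24 of 30 genes passed the F-test, where 39.5% of all genes did. Between OCP4 and OCP3, 18 were higher and 5 lower in OCP4, where 27.8% of all genes were called (median 0.33 log2 units, beside 0.04 over all genes). The genes with the widest ranges were Irx5 and Irx3, homeobox genes of early proximal and anterior limb, and Aldh1a2, which makes retinoic acid. Irx5 averaged 11.10 ± 0.23 in OCP4, 9.93 ± 0.06 in OCP1, 9.30 ± 0.12 in OCP3 and 8.75 ± 0.14 in OCP2 (SD). Irx3 was higher in OCP4 than in OCP3 by 1.43 log2 units (adjusted p = 1.01e-08). Aldh1a2 averaged 9.18 ± 0.20 in OCP4, 9.90 ± 0.11 in OCP1, 11.09 ± 0.09 in OCP3 and 10.71 ± 0.07 in OCP2 (SD), with its lowest level in OCP4. Fgf10, the target of Tbx5 and Tbx4 in the early bud and named after its values were seen, was higher in OCP4 than in OCP3 by 1.08 ± 0.11 log2 units (SE, adjusted p = 4.52e-06), where Tbx4 was lower and Tbx5 was not called. It was also higher in OCP4 than in OCP2 by 0.65 log2 units (adjusted p = 0.00103), where Tbx4 and Tbx5 were lower. In 2 other comparisons Fgf10 had the direction of both genes. Its log2 difference was -0.42 for OCP3 minus OCP2 (adjusted p = 0.0300) and 0.92 for OCP1 minus OCP3 (adjusted p = 5.92e-05). Between OCP4 and OCP1, where both genes were lower in OCP4, Fgf10 was not called (0.15, adjusted p = 0.426). Between OCP1 and OCP2, Fgf10 was higher by 0.50 log2 units (adjusted p = 0.0239).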

How the data were processed

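Gene expression was measured on Mouse Gene 1.0 ST arrays in 14 samples, grouped by sample title. The submitters' processing notes name RMA and limma, with no version. The genome build and annotation version are not given in the sources. The values the authors deposited are linear intensities after RMA, 1 for each probe set on each array, and log2 was taken here. The authors' deposited comparison table supplied the symbols; its log2 levels matched the value table at its row positions (largest gap 5.17e-09), and its log2 differences served as a check. Its adjusted p-values were made by the authors with limma, per the submitters' processing notes, and are not printed. Of 35556 probe sets, 25254 had a symbol, and 26 symbols turned into dates were left out. The brightest probe set per symbol gave 21734 genes.

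Limma 3.58.1 (R 4.3.3) fitted 1 mean per group to all 14 arrays, with 10 residual degrees of freedom before moderation by eBayes. Benjamini-Hochberg adjustment ran over all genes, separately for each comparison, and 0.05 was the threshold. The script was tested on simulated data. The number of arrays limits the precision. The 10 genes, the 5 pathway lists (69 genes) and the 10 marker lists (94 genes) were chosen with earlier results of these data known. Named from each pathway list were the up to 3 genes passing the F-test with the widest range of group means, from each marker list up to 2, and 3 genes of most similar profile per limb identity gene; exceptions are named as such, and 1 gene that the rule names is not reported here. No batch is named in the sources.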

Additional observations from a re-analysis of the deposited data

Results flagged for a closer look

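Tbx15 in OCP3 replicate 3 read 12.58, and the nearest of the other 3 OCP3 arrays 12.52. That gap takes up 0.896 of the group's range, above the limit for 4 samples, in a group whose SD is only 0.033 log2 units. With 20 such groups of 4 arrays examined, chance flags about 1 in 20.

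The CD73 difference depended on Thy1, in the test of the interaction, for Pitx1 (-0.76 log2 units), Tbx4 (-1.04), Tbx2 (-1.17), Tbx3 (-0.61), Tbx15 (0.28) and Meis1 (1.09), each being the CD73+ minus CD73- difference of Thy1+ cells less that of Thy1- cells.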

How the results depend on the processing

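Every comparison was repeated under 23 alternatives (22 for the interaction and the F-test), which left out 1 array at a time or changed the normalization, filter, probe sets, variance prior, weights, block or samples. Of the 42 calls among 70 values (10 genes, 6 pairs and the interaction), 42 kept their sign and 35 also stayed past the threshold throughout; the other 7 are given beside their genes. Of the 28 values not called, 5 were called in some setting. With 1 array left out, the members called ranged from 2 to 4 for OCP1 minus OCP2, 5 to 7 for OCP4 minus OCP3, 4 to 5 for OCP3 minus OCP2, 5 to 8 for OCP4 minus OCP1, 5 to 6 for OCP1 minus OCP3, 8 to 10 for OCP4 minus OCP2 and 8 to 10 for the F-test, and stayed at 6 for the interaction. Over all genes, OCP1 minus OCP2 gave 2388 calls, 1477 without OCP1 replicate 1 and 1486 without OCP2 replicate 2. Across all settings, the replicate block among them, its calls over all genes ranged from 1477 to 3494. The same range was 5163 to 6684 for OCP4 minus OCP3, 2486 to 3738 for OCP3 minus OCP2 and 4371 to 6441 for OCP4 minus OCP1. For OCP1 minus OCP3 it was 3969 to 5936, and for OCP4 minus OCP2 4478 to 6040. The interaction had 3012 to 4507 and the F-test 7528 to 9634.

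Centring arrays moved all differences by at most 0.065 log2 units. Over all genes it turned the balance of calls in OCP1 minus OCP2, from 963 higher and 1425 lower to 1531 and 976. In OCP4 minus OCP2 the counts went from 2258 and 2993 to 3753 and 2287. The balance also turned in OCP3 minus OCP2, OCP1 minus OCP3 and the interaction, but not in OCP4 minus OCP3 or OCP4 minus OCP1. Same-numbered replicates did not deviate together throughout (19 pairs, r from -0.42 to 0.40, 8 over 0.1). Replicate 2 did so in part, with r = 0.40 between OCP4 and OCP3 and 0.25 to 0.30 between OCP1 and each other population. Its r was -0.10 between OCP3 and OCP2 and 0.06 between OCP4 and OCP2. Since 2 of 14 arrays correlated best with their own number, the numbers were not taken to pair the samples. With the replicate block, 4, 6, 4, 5, 5, 9 and 6 of the 10 genes were called in the order above, ending with the interaction, and 8 in the F-test.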
